A study of Sus scrofa with 13 samples.

Results

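The genes described here carry the NF-kB, cytokine and innate immune signalling of the cell. They were chosen by name: 38 gene symbols of the pathway, each of which has a row among the 27339 gene rows of the count tables. They comprise 6 secreted ligands, 10 receptors, 9 adaptors and kinases, 2 inflammasome genes, 7 transcription factors, 3 inhibitors and 1 effector enzyme.

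In this pathway, ligands such as TNF and interleukin-1, or microbial products sensed by Toll-like receptors, act through adaptors and ubiquitin ligases on the IkB kinases. The kinases release NF-kB dimers of the Rel family from the inhibitor IkB, and the dimers switch on inflammatory genes together with the genes of their own inhibitors. Interleukin-6 and interferon signal by a separate route of JAK kinases and STAT factors. Mesenchymal stem cells are studied for the factors they secrete in inflamed tissue, among them interleukin-6 and the prostaglandins made by PTGS2.

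The readout is 5hmC (5-hydroxymethylcytosine), a DNA base that arises when TET enzymes oxidise 5-methylcytosine, so the values below describe DNA and not expression. DNA fragments with 5hmC were captured with an antibody, sequenced and counted per gene. The cells were adipose-derived mesenchymal stem cells of female domestic pigs (Sus scrofa). Hypoxia cells spent 48 hours at 1% oxygen, and normoxia cells were kept at 20% oxygen. Both groups came from pigs on a diet with 2% cholesterol that had a coil placed in 1 renal artery after 6 weeks of diet, and the fat was taken 3 weeks after that, so no library comes from a healthy pig. Each group holds 6 libraries, 1 for each of the numbers 110, 16, 21, 33, 49 and 4 that start the sample titles. The labels do not say what these numbers mean, so the libraries may or may not come from different pigs. The cells are passaged cultures of abdominal fat.

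The libraries held 263578 to 714002 reads in genes, 1.69 to 2.89% of their reads. The normoxia library of number 21 had the fewest. Numbers 49 and 4 were sequenced in lane 8 and the other numbers in lane 7. Levels are given as CPM, a gene's reads per 1000000 reads that the library held in the 11868 genes with enough reads to be tested. That total was adjusted by TMM scaling, which evens out differences in library makeup. CPM are not divided by gene length, so levels are compared between libraries and not between genes. The 12 stromal markers listed for the labelled cell type all had reads, summing to 1140 to 1720 CPM in hypoxia and 1230 to 2480 CPM in normoxia. Immune markers (12 genes, 774 to 872 CPM in hypoxia and 615 to 1050 in normoxia) and endothelial markers (8 genes, 474 to 642 CPM in hypoxia and 355 to 604 in normoxia) also had reads, none at 0, so the lists did not set the labelled cell type apart from the others in this DNA readout.

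Of the 38 signalling genes, 23 had enough reads to be tested. The other 15 were TNF, IL1B, IL18, TLR2, TLR4, MYD88, IRAK1, IRAK4, TRAF2, CHUK, JAK2, CASP1, NFKB2, RELA and IRF1. Apart from TRAF2 they held 17 to 137 reads each over the 12 libraries. TRAF2, an adaptor of TNF receptors, had 0 reads in 12 libraries, which over 5824590 gene reads allows a level of up to 0.515 CPM before TMM scaling, provided that the gene was among the sequences the authors aligned to. That is not known, and TRAF3 and JUN of the wider pathway also had 0 reads. The floor of 3 reads and other counting limits cover counting error only. The most read of the untested genes was TLR2, a receptor for bacterial lipopeptides, with 73 reads in hypoxia and 64 in normoxia. TNF, the founding cytokine of the pathway, had 56 reads in hypoxia and 45 in normoxia. CHUK, the kinase IKK alpha, had 32 reads in hypoxia and 18 in normoxia, and RELA, the p65 subunit of NF-kB, 28 in hypoxia and 43 in normoxia. IL1B had 30 reads in hypoxia and 23 in normoxia, and its near-identical porcine copy IL1B2 had 0, so the split of reads between the copies is uncertain. JAK2, a kinase of cytokine receptors, had 60 reads in hypoxia and 55 in normoxia, NFKB2, the p100 subunit gene, 41 in hypoxia and 59 in normoxia, and CASP1, the inflammasome protease, 32 in hypoxia and 36 in normoxia. TLR4, the lipopolysaccharide receptor, had 29 reads in hypoxia and 22 in normoxia, and IL18, an inflammasome-processed cytokine, 15 in hypoxia and 18 in normoxia. The receptor-proximal kinase genes IRAK4 (24 in hypoxia, 19 in normoxia) and IRAK1 (16 in hypoxia, 17 in normoxia), the adaptor gene MYD88 (9 in hypoxia, 8 in normoxia) and the interferon regulatory factor gene IRF1 (14 in hypoxia, 12 in normoxia) had fewer. None of the 15 had enough reads in enough libraries for the filter on low counts, so none entered a test. The total alone did not decide this, as the tested RELB held 129 reads.

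The study's comparison asked whether hypoxia preconditioning changed 5hmC at these genes. None of the 23 passed: edgeR's quasi-likelihood test called 0 members at a Benjamini-Hochberg adjusted p under 0.05, where the background over all 11868 genes was 0% called. With the title number as a block it again called 0 members, against a background of 0.0337%. DESeq2's Wald test also called 0. At an unadjusted p under 0.05 the counts were 0 without the block, where 2.73% of all genes passed, and 1 (PTGS2) with it, where 7.09% did. No member had hypoxia libraries that stood clear of the normoxia libraries, as 0.101% of all genes did. As a description, the log2 fold change of hypoxia over normoxia was below 0 at 16 of the 23 and above 0 at 7, and its median was -0.18, while 56.6% of all tested genes were negative with a median of -0.04. With the untested genes let in by dropping the filter on low counts, 20 of 37 were negative with a median of -0.04. Within lane 8 the sign of the median turned, to 0.07 over 27 members, and within lane 7 it was -0.11. Without both libraries of number 16 in the blocked fit the median was -0.01. The stromal marker sum was lower under hypoxia in 6 of 6 numbers, with 9 of 11 tested genes below 0, and the immune marker sum was higher in 5 of 6, with 6 of 8 above 0. The endothelial sum was higher in 3 of 6, with 4 of 6 above 0. No marker passed the test, and the part of cell makeup in the members' values was not tested.

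**Figure D1:**
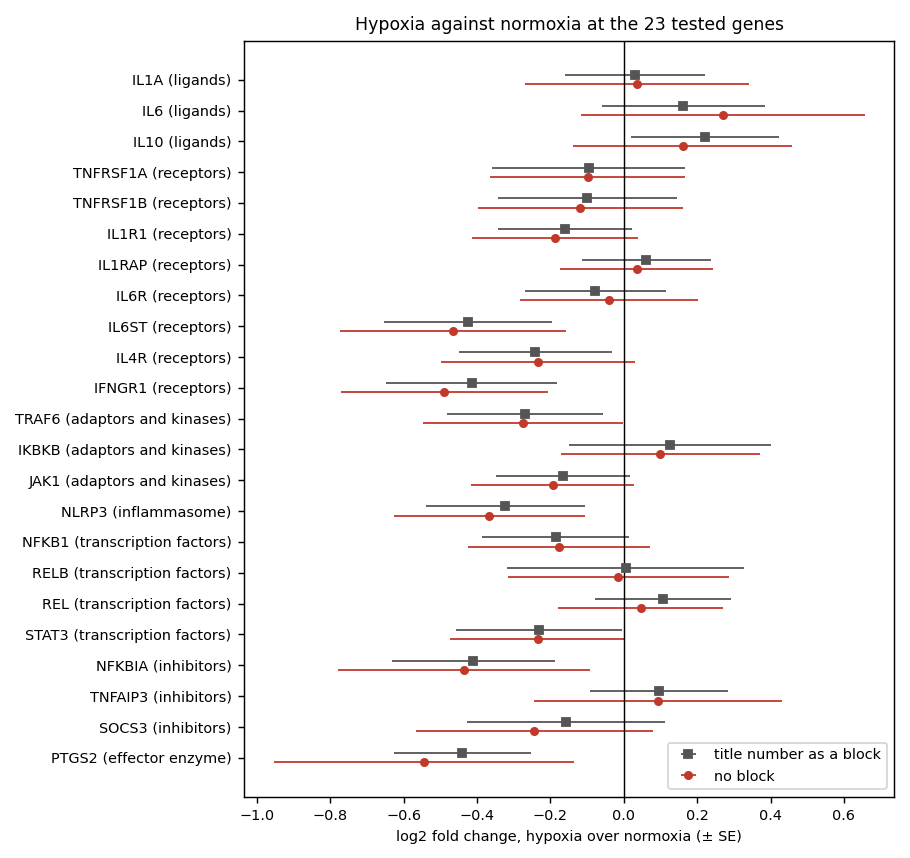
Log2 fold change of hypoxia over normoxia with its SE at each of the 23 tested genes, ordered by role; red circles are the fit without the title number and grey squares the fit with the title number as a block. Points run from -0.55 for PTGS2 to 0.27 for IL6 without the block, and none of the 23 passed the adjusted threshold in either fit.

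Among the ligands, IL1A, IL6 and IL10 were tested. IL6 encodes an inflammatory cytokine that stromal cells secrete. Its level was 37.1 CPM at the lowest, 112 at the median and 256 at the highest in hypoxia, and 46.7, 115 and 145 CPM in normoxia. The log2 fold change was 0.27 ± 0.387 (SE), with an edgeR adjusted p of 1. The highest value was the hypoxia library of number 4, and the groups overlapped. Without number 4 the value turned to -0.10 without the block and -0.14 with it. IL10, encoding an anti-inflammatory cytokine, had 74.2, 154 and 195 CPM (lowest, median and highest) in hypoxia and 72.4, 98.2 and 221 in normoxia. Its log2 fold change was 0.16 ± 0.298 (SE), and 0.22 ± 0.202 with the block (edgeR adjusted p of 0.894). With 1 library left out it ranged between 0.04 (without normoxia 4) and 0.39 (without normoxia 110). IL1A, an interleukin-1 alarmin whose neighbours in assembly Sscrofa11.1 are IL1B and CKAP2L, averaged 257 ± 121 CPM across the 6 hypoxia libraries and 253 ± 109 CPM across the 6 normoxia libraries (SD). Its log2 fold change of 0.04 turned to -0.18 without number 4, and with 1 library left out it ranged between -0.21 (without hypoxia 4) and 0.26 (without normoxia 33). The 6 ligand genes together summed to 559 ± 161 CPM per hypoxia library, against 514 ± 55.8 CPM per normoxia library (SD over 6, the hypoxia library of number 4 standing apart at 878 CPM), with hypoxia lower in 3 of 6 numbers.

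Among the receptors, 7 of the 8 tested genes had values below 0, none past the test, and the median was -0.15. IFNGR1, the ligand-binding chain of the interferon-gamma receptor, had 63.0, 66.0 and 86.7 CPM (lowest, median and highest) in hypoxia and 60.7, 86.5 and 169 in normoxia. Normoxia 21 and normoxia 49 were the highest libraries, at 169 and 154 CPM, and hypoxia was lower in 3 of 6 numbers. Its log2 fold change was -0.49 ± 0.282 (SE) without the block and -0.42 ± 0.234 with it (edgeR adjusted p of 1 and 0.745). Without normoxia 49 it was -0.31 and without normoxia 21 -0.32. IL6ST encodes gp130, the signalling chain shared by the interleukin-6 family. It had 32.9, 50.6 and 84.2 CPM in hypoxia and 32.7, 60.9 and 114 in normoxia, lower in hypoxia in 5 of 6 numbers. The log2 fold change was -0.47 ± 0.308 (SE) without the block and -0.43 ± 0.229 with it (edgeR adjusted p of 1 and 0.717). Without normoxia 110 it was -0.28 and without normoxia 49 -0.31. The other tested receptors lay between -0.23 for IL4R, the interleukin-4 receptor, and 0.04 for IL1RAP, the accessory chain of interleukin-1 receptors. Between these stood TNFRSF1A (-0.10) and TNFRSF1B (-0.12), both TNF receptors, IL1R1 (-0.19), the signalling receptor of interleukin-1, and IL6R (-0.04), the ligand-binding chain for interleukin-6, whose hypoxia library of number 49 stood apart at 196 CPM. Of the 23 tested members 4 (IL6R, IL6ST, IL4R and TRAF6) were lower under hypoxia in at least 5 of 6 numbers, as 14.3% of all tested genes were. Of the untested members RELA was. In the other direction the tested REL and the untested CHUK and TLR4 were higher in 5 of 6 numbers. Over the 10 receptor genes the sum was 832 ± 81.7 CPM per hypoxia library, against 923 ± 124 CPM per normoxia library (SD over 6), and hypoxia was lower in 5 of 6 numbers.

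Inside the cell, 11 of the 21 transducer genes were tested, 8 negative and 3 positive with a median of -0.19. TRAF6, the ubiquitin ligase that carries Toll-like and interleukin-1 receptor signals, had 32.9, 72.0 and 107 CPM (lowest, median and highest) in hypoxia and 48.3, 87.5 and 114 in normoxia. It was lower in hypoxia in 5 of 6 numbers, number 4 being the exception. Its log2 fold change was -0.28 ± 0.273 (SE), -0.46 without number 4 and -0.13 without hypoxia 21. JAK1, a kinase of cytokine receptors, had 156, 191 and 238 CPM in hypoxia and 131, 242 and 271 in normoxia, with a log2 fold change of -0.19 ± 0.222, and of -0.12 without normoxia 49 or normoxia 110. The 21 transducer genes summed to 1190 ± 129 CPM per hypoxia library, against 1300 ± 164 CPM per normoxia library (SD over 6), lower in hypoxia in 4 of 6 numbers. IKBKB, the kinase IKK beta, had the highest value of the 3 tested adaptors and kinases, 0.10 ± 0.272. NLRP3, the sensor of the best-studied inflammasome, had 58.6, 78.7 and 85.1 CPM in hypoxia and 65.4, 88.4 and 184 in normoxia. The normoxia library of number 21 held that highest value, and the log2 fold change was -0.37 ± 0.260, or -0.15 without that library.

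Of the NF-kB subunit genes NFKB1, RELB and REL were tested. NFKB1, which encodes p105 and its product p50, had 55.6, 96.1 and 129 CPM (lowest, median and highest) in hypoxia and 67.7, 112 and 155 in normoxia. Both libraries of number 16 were the lowest of their group. Its log2 fold change was -0.18 ± 0.248 (SE), and -0.05 without the hypoxia library of number 16. RELB, a subunit of the alternative pathway, had -0.02 ± 0.301, and REL, the c-Rel subunit, 0.05 ± 0.225. With the block RELB stood at 0.0045, and REL was lower in hypoxia in 1 of 6 numbers. The untested RELA averaged 10.8 ± 5.97 CPM over hypoxia libraries and 15.2 ± 6.69 CPM over normoxia libraries, and NFKB2 averaged 14.47 ± 10.02 CPM over hypoxia libraries and 20.38 ± 12.04 CPM over normoxia libraries (SD of 6). STAT3, the main transcription factor behind interleukin-6, had 52.5, 59.5 and 81.8 CPM in hypoxia and 38.6, 74.2 and 96.3 in normoxia, with a log2 fold change of -0.24 ± 0.239, and of -0.13 without normoxia 49.

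The 3 inhibitors are themselves targets of the pathway. NFKBIA encodes IkB alpha, which holds NF-kB in the cytoplasm. It had 27.8, 60.1 and 97.6 CPM (lowest, median and highest) in hypoxia and 33.8, 78.1 and 154 in normoxia. Its log2 fold change was -0.44 ± 0.343 (SE) without the block and -0.41 ± 0.223 with it (edgeR adjusted p of 1 and 0.717). Without normoxia 33 it was -0.19. SOCS3, a brake on JAK and STAT signalling, had 27.4, 38.1 and 59.9 CPM in hypoxia and 19.3, 51.1 and 67.7 in normoxia, with a log2 fold change of -0.24 ± 0.323, or between -0.41 (without hypoxia 4) and -0.10 (without normoxia 4) with 1 library left out. TNFAIP3, the ubiquitin-editing enzyme A20, had 64.4, 151 and 228 CPM in hypoxia and 60.7, 137 and 234 in normoxia. The 2 groups covered nearly the same range at this gene, with a log2 fold change of 0.09 ± 0.338, or between -0.06 (without hypoxia 33) and 0.31 (without normoxia 33) with 1 library left out.

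PTGS2, the inducible cyclooxygenase COX-2, had the lowest log2 fold change of the 23 with all libraries in the fit. Its level was 426, 80.4, 272, 416, 498 and 466 CPM in the hypoxia libraries of numbers 110, 16, 21, 33, 49 and 4, against 636, 93.4, 251, 939, 786 and 448 CPM in the normoxia libraries. Hypoxia was lower in 4 of 6 numbers and the groups overlapped. The log2 fold change was -0.55 ± 0.409 (SE) without the block (edgeR adjusted p of 1) and -0.44 ± 0.187 with it (unadjusted p of 0.0253, adjusted p of 0.646). Without the normoxia library of number 33 it was -0.29, while IFNGR1 stood at -0.56 and IL6ST at -0.49 in the same fit, and without hypoxia 16 it was -0.33. PTGS2 overlaps PLA2G4A in RefSeq's annotation of Sscrofa11.1, and IL6ST, IL1R1, NLRP3, JAK1, RELB, REL, TNFRSF1A and NFKBIA each overlap another gene too. So do MYD88, JAK2, NFKB2 and IRF1 of the untested genes. How the authors' counting split reads there is not stated, and the row for reads that fit several genes held 0.00502 to 0.00948% of all reads.

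**Figure D2:**
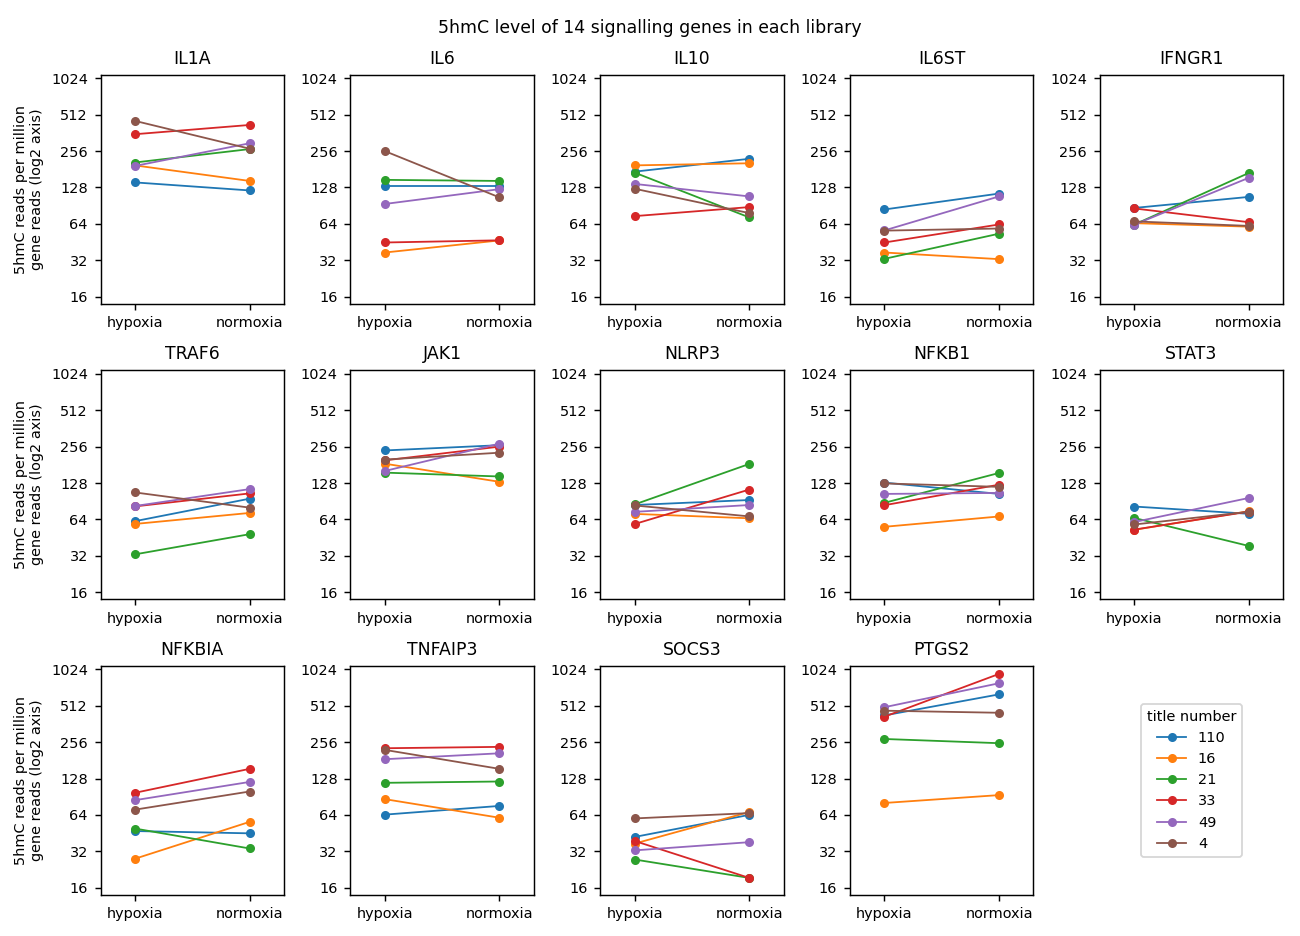
CPM on a log2 axis of the 14 genes described in full, with hypoxia on the left and normoxia on the right and a line joining the libraries that share a title number. Number 16 is the lowest in both conditions at PTGS2, at 80.4 CPM in hypoxia and 93.4 CPM in normoxia, and at TNFAIP3 and most other genes the slopes differ in sign between numbers.

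Leaving out number 4, whose libraries were less alike than those of other numbers, gave 19 negative and 3 positive values among 22 tested members without the block (median -0.20) and 18 negative and 4 positive with it (median -0.18). All tested genes had medians of -0.05 and -0.03 in the same fits. In both fits 0 members passed edgeR's test, where the background was 0% of genes. At an unadjusted p under 0.05 the fit without the block held 0 members, against 3.43% of all genes. In the blocked fit 5 members had an unadjusted p under 0.05, as did 10.7% of all genes. These were PTGS2 (log2 fold change -0.56 ± 0.171, edgeR adjusted p of 0.294), IL6ST (-0.52 ± 0.240, adjusted p of 0.447), TRAF6 (-0.45 ± 0.213, 0.460), IFNGR1 (-0.53 ± 0.253, 0.462) and NLRP3 (-0.46 ± 0.220, 0.463). Counted within single numbers, the hypoxia library was the lower at 12, 14, 11, 19, 16 and 9 of the 23 genes for numbers 110, 16, 21, 33, 49 and 4. Over all tested genes the share lower lay between 49.5% (number 16) and 52.3% (numbers 21 and 33). The members' median log2 ratio was most negative in number 33 (-0.37) and highest in number 4 (0.12). Leaving out number 4 therefore removes the number that ran most against a negative median, so those fits are no separate support for it.

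**Figure D3:**
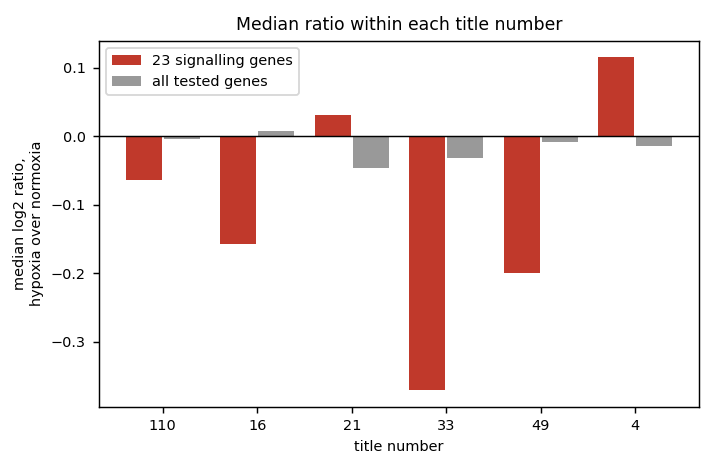
Median log2 ratio of hypoxia over normoxia within each title number, for the 23 tested signalling genes (red) and for all tested genes (grey). The signalling genes lie between -0.37 in number 33 and 0.12 in number 4, while the medians of all genes stay between -0.05 and 0.01.

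The 5hmC level of several of these genes differed between the title numbers. A test of the 6 numbers with treatment held called 6 of the 23 members at an adjusted p under 0.05, with a background of 12.8% of all genes. The 6 were PTGS2, TNFAIP3, IL6, IL1A, NFKBIA and IL10, that is, all 3 tested ligands, 2 of 3 inhibitors and the cyclooxygenase. No tested receptor, adaptor, kinase, inflammasome gene or transcription factor passed in this fit. IL6ST came closest, with an edgeR adjusted p of 0.051. The lanes differ in the numbers they hold, so lane and number cannot be told apart in this test, but within lane 7 alone 5 of 23 members passed (background 7.23%), IL10 being the one lost (edgeR adjusted p of 0.0581). Without number 4, 7 of 22 passed (background 14.2%), the 6 and IL6ST. The receptor genes IL6ST and TLR2 both passed without the filter on low counts (background 9.09%) and without number 21 (15.9%). TLR2 also passed without number 110 (9.75%), so the absence of receptors depends on the filter and the libraries.

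PTGS2 showed the widest spread. The mean of its hypoxia and normoxia libraries was 531, 86.9, 261, 677, 642 and 457 CPM in numbers 110, 16, 21, 33, 49 and 4 (edgeR adjusted p of 2e-05), so that number 33 stood 7.8-fold above number 16. Without number 16 its adjusted p was 0.0587. Between numbers the SD of log2 CPM was 1.08, and within numbers 0.345, against medians of 0.375 and 0.375 over all genes. TNFAIP3 averaged 70.2, 73.6, 119, 231, 196 and 188 CPM in the same order (adjusted p of 0.000709), low in 110 and 16 and high in 33, 49 and 4. NFKBIA had the same high numbers, at 46.1, 41.9, 41.6, 126, 103 and 85.5 CPM (adjusted p of 0.00889, and 0.0625 without number 33).

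IL1A averaged 131, 170, 236, 387, 245 and 362 CPM in numbers 110, 16, 21, 33, 49 and 4 (edgeR adjusted p of 0.00662, and 0.0682 without number 110), highest in 33 and 4. IL6 followed another order, with 131, 41.9, 147, 45.9, 109 and 181 CPM (adjusted p of 0.00111). It was low in 33 as well as in 16, where its reads numbered 12 to 23 per library. IL10 averaged 197, 199, 121, 81.1, 123 and 102 CPM (adjusted p of 0.0291) and was highest in 110 and 16, the numbers with the least TNFAIP3. Its call was lost without number 110, 16 or 33 (adjusted p of 0.0797, 0.124 and 0.115).

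**Figure D4:**
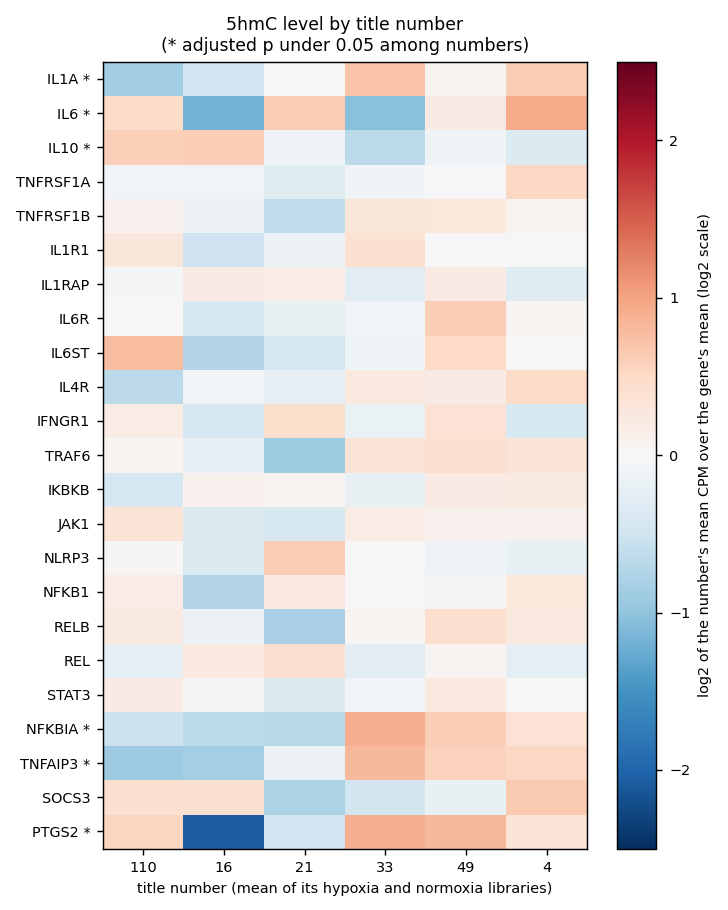
Level of the 23 tested genes by title number, as the log2 of the number's mean CPM over the gene's geometric mean across numbers; red is higher, blue lower, and stars mark an adjusted p under 0.05 for the difference among numbers. PTGS2, with 86.9 CPM in number 16, shows the deepest blue, and NFKBIA and TNFAIP3 are high in 33, 49 and 4.

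Some stromal marker genes differed between numbers too. Of the 11 tested of 12, 4 passed the same test (PDGFRA, COL3A1, ITGB1 and VCAM1), where 12.8% of all genes did. Among the other markers 1 of 8 immune (SPI1) and 1 of 6 endothelial genes (VWF) passed, both near that share. Summed over the stromal list the mean level was 1850, 1410, 1190, 2100, 1870 and 1710 CPM in numbers 110, 16, 21, 33, 49 and 4, lowest in 16 and 21. The immune list summed to 743, 843, 948, 724, 727 and 784 CPM and the endothelial list to 469, 525, 598, 502, 414 and 566 CPM. VCAM1, an adhesion molecule induced by NF-kB, averaged 31.5, 22.1, 38.2, 189, 67.9 and 112 CPM. It was also lower under hypoxia in 6 of 6 numbers, as 2.59% of all genes were. VCAM1, picked out after its values were seen, averaged 50.7 ± 39.3 CPM over hypoxia libraries and 103 ± 90.4 CPM over normoxia libraries (SD of 6). Its blocked log2 fold change of -0.95 ± 0.238 (SE) did not pass (edgeR adjusted p of 0.225, unadjusted p of 0.00038) but was larger in size than that of any tested member. The other tested stromal markers lay between -0.41 (COL3A1) and 0.29 (ENG) with the block. The part of cell makeup in the differences between numbers was not tested.

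The wider pathway was read from 145 further gene symbols, 135 of which have a row and 82 of which were tested. Of these 0 were called for hypoxia in either fit, with 32 positive and 50 negative values and a median of -0.08. IL1RL1, the interleukin-33 receptor, averaged 54.5 ± 27.9 CPM over hypoxia libraries and 86.3 ± 37.7 CPM over normoxia libraries (SD of 6), lower under hypoxia in 6 of 6 numbers, with a blocked log2 fold change of -0.66 ± 0.218 (SE, edgeR adjusted p of 0.509). STAT5B, a cytokine-activated transcription factor, was likewise lower in 6 of 6 numbers (blocked -0.58 ± 0.287, adjusted p of 0.7), as 2.59% of all genes were. BIRC3, a ubiquitin ligase of TNF signalling, had -0.40 ± 0.190. In the other direction stood CSF2, the growth factor GM-CSF, with 98.7 ± 85.1 CPM over hypoxia libraries, 57.8 ± 41.6 CPM over normoxia libraries and a blocked log2 fold change of 0.69 ± 0.252 (adjusted p of 0.544). OSM, an interleukin-6 family ligand (0.78 ± 0.376, adjusted p of 0.7), also lay above 0 with the block. So did IRF2, an interferon regulatory factor (0.46 ± 0.200, adjusted p of 0.659). Both OSM and IRF2 were higher under hypoxia in 6 of 6 numbers. OSM rested on 63 reads in hypoxia and 38 in normoxia, with its lowest normoxia library at 0 CPM. IRF5 had 0.41 ± 0.319 (SE) without the block.

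Among the numbers, 17 of the 82 passed, with the same background of 12.8%. They were the ligand genes IL33, IL11 and CSF2, the receptor genes IL1RL1, IL10RA, IL10RB, IL22RA1 and IFNAR1, the kinase genes MAP3K14 and MAPK8, the innate sensor and adaptor genes NOD1 and MAVS, the transcription factor genes STAT5B and IRF2, and the inhibitor genes BCL3, SOCS2 and ZC3H12A. The smallest adjusted p were those of CSF2 (0.000276) and IL10RB (0.000329), both lowest in number 16. IL10RB was highest in number 33 and CSF2 in number 4. IL10RA, the partner chain of the interleukin-10 receptor, was lowest in 33 and highest in 16 (adjusted p of 0.006), as was IL10 itself. Within lane 7, 8 of 75 passed (background 7.23%), and without number 4, 16 of 80 (14.2%).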

How the data were processed

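The authors deposited raw HTSeq counts per gene symbol, 1 table per library, and peak lists that were not used here. Per the submitters' processing notes, the tools included HTSeq, Bowtie2, Picard, edgeR and MACS2. Not given in the sources used here are the genome build, annotation, counted feature and strand setting, so introns may or may not be covered, and antisense or overlapping genes cannot be told apart. All 38 symbols matched RefSeq's table of Sscrofa11.1, used only for names and for neighbouring and overlapping genes. Rows that name no gene stayed out of library sizes. They hold reads outside any feature (88.0 to 93.0%), of low alignment quality (4.12 to 10.3%) and a blank row at 0. An input sample without a group was not analysed here.

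Counts were tested in edgeR 4.0.16 (R 4.3.3) with filterByExpr (minimum count 10, minimum total 15), TMM scaling and glmQLFTest. Library sizes were recounted over the genes that passed the filter. P-values were adjusted over all genes tested, by Benjamini-Hochberg, with a threshold of 0.05. Standard errors were derived as |log2 fold change| divided by the square root of the F statistic. DESeq2 1.42.0 was an alternative. Same-numbered libraries correlated at 0.136 to 0.478 after removal of group means. All lay above a threshold of 0.1, and the numbers taken from the titles were used to pair the libraries. Libraries of other numbers reached 0.504, and 33 and 4 did not correlate best with their own number. The threshold therefore does not establish the pairing, on which the blocked fits and the counts within numbers rest. All 66 pairs of libraries differed by more than counting noise (lowest chi-square 1.26 per degree of freedom). The p-values rest on the spread among the libraries, possibly technical. The fits were also run on counts simulated from the fitted model, and the outcome is not reported here.

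The genes and lists were chosen with earlier results of these data known. Genes given in full are the 2 with the smallest p per role in either fit, PTGS2, and those called among numbers. Of the wider pathway they are the 3 with the smallest p per direction in either fit, and those called. Untested genes are given by reads. The remaining tested genes and VCAM1 were named after their values were seen. The planned promoter, protein and per-length descriptions were not made, because the tables they need were not used here.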

Additional observations from a re-analysis of the deposited data

Results flagged for a closer look

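Over the 23 tested genes and the summed ligands, receptors and transducers, 52 groups of 6 libraries were checked for a library far from the others, and 2 were flagged. Chance flags about 1 in 20 groups. IL6R stood at 196 CPM in the hypoxia library of number 49, where the other hypoxia libraries lay between 77.3 and 107 CPM. The 6 ligand genes summed to 878 CPM in the hypoxia library of number 4, where the others lay between 456 and 560 CPM.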

How the results depend on the processing

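No member was called for hypoxia under any alternative run: the replicate block, other scalings, no filter, DESeq2, leaving out each library or number, or lanes. Over all genes the replicate block gave 4 calls, and leaving out libraries 0 to 12 (12 in the blocked fit without number 21). The median of the members ran from -0.216 to -0.00877 with libraries left out, and turned to 0.0726 in lane 8. It stayed negative under every other alternative. The members with a negative value numbered 13 to 19 with libraries left out. Among the genes given in full, 3 changed sign when libraries were left out: IL1A (-0.21 to 0.263), IL6 (-0.142 to 0.465) and TNFAIP3 (-0.0556 to 0.308). Among title numbers 4 to 8 members were called. IL6 and TNFAIP3 were among them in each fit, and the 6 genes under both other scalings. All-gene calls among numbers were 2303 without the filter, 834 in lane 7 and 884 to 1935 without 1 number, against 1520. The runs without numbers other than 4, and lane 7, were added after seeing the data. The replicate block changed no call of a member. Depth limits the test: 15 of 38 genes did not pass the filter on low counts.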
